A study of Mus musculus with 13 samples.

Results

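Aminoacyl-tRNA synthetases are the enzymes that join each amino acid to its tRNA, so every ribosome depends on their products. One set of enzymes serves the cytosol and a second set, also encoded in the nucleus, is imported into mitochondria. Several of the cytosolic enzymes are held together in the multi-synthetase complex, and all of them fall into class I or class II by the fold of the catalytic site, with Eprs, the fused glutamyl- and prolyl-tRNA synthetase, carrying both. In the growing oocyte they charge the tRNAs used to build the maternal protein store, and several cytosolic members are known targets of ATF4, the transcription factor of the amino acid response.

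The genes described here were taken from a list of 37 synthetase genes matched by Ensembl identifier to gene symbols, among 22442 genes in the Ribo-seq files and 21898 in the acRIP-seq files. All 37 were found in both. Of these, 21 were listed as cytosolic and 16 as mitochondrial, with 8 in the multi-synthetase complex, 18 in class I and 18 in class II. The list holds no separate mitochondrial gene for the glycyl (Gars) or lysyl (Kars) enzyme, so cytosolic and mitochondrial below mean as listed. The genes lie on 15 chromosomes. Exons of 2 of them overlap another gene on the same strand, and exons of 13 overlap a gene on the opposite strand, so counts of these are less certain where counting did not use strand. Aars, for example, overlaps Exosc6 on the same strand, and on the opposite strand Farsb overlaps Sgpp2, Fars2 overlaps Lyrm4 and Nrn1, Yars overlaps C77080, and Hars and Hars2 overlap each other.

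Ribo-seq counts the ribosome-protected fragments (RPFs, or footprints) that a ribosome shields from RNase I. The 11 Ribo-seq libraries were 3 from WT oocytes at the germinal vesicle (GV) stage, 3 from Nat10-ZcKO GV oocytes, 2 from WT oocytes arrested at metaphase II (MII) and 3 from Nat10-ZcKO MII oocytes, with about 100 oocytes pooled in each. All mice were C57BL/6J females primed with PMSG at 21 days of age. Nat10-ZcKO oocytes came from Nat10 lox/-; Zp3-Cre females, bred from Nat10 lox/lox mice. Zp3-Cre is active in oocytes from the primary follicle onwards and leaves Nat10 in the somatic cells of the ovary. Nat10 encodes the enzyme that makes N4-acetylcytidine (ac4C) in RNA. The series' design text also mentions tamoxifen on 3 days, which the methods do not describe for these females, and how MII oocytes were obtained for Ribo-seq was not stated. acRIP-seq counted mRNA fragments pulled down from about 2000 WT GV oocytes by an anti-ac4C antibody, in 1 library, or by anti-IgG, in 1 library.

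Libraries held 4815 to 279464 footprints on genes, so that a count of 0 allows between 10.7 and 623 CPM (counts rescaled to a common library total). Footprints of Nat10 itself were few and overlapped between the genotypes. WT GV libraries had 3 to 11 counts (31.2 to 55.0 CPM), and those of Nat10-ZcKO GV 4, 1 and 5 (94.4, 19.3 and 18.0 CPM). WT MII libraries had 1 and 5 counts (7.42 and 1038 CPM), and those of Nat10-ZcKO MII 2 to 6 (12.5 to 31.9 CPM). The deletion removes part of the gene, while counts cover its whole coding sequence. A set of 3 libraries stood apart. The 12 oocyte markers took 5.38% to 7.37% of WT GV libraries and 10.8% of Nat10-ZcKO GV replicate 3, but 0.0165% of Nat10-ZcKO GV replicate 1 and 1.44% of replicate 2. In these same 2 libraries the 16 adipocyte markers took 1.77% and 0.373%, against 0.0217% to 0.0615% in the others except WT MII replicate 2 (0.166%), and granulosa or cumulus markers took 1.23% and 0.366%, against 0% to 0.602%. WT MII replicate 2 held 4815 counts, 1 of them on an oocyte marker. Values without these libraries are therefore given beside the tests that rest on them, and the part of these markers in the results was not tested. A bulk library cannot tell fewer cells of a type from less RNA per cell.

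Sars, the cytosolic seryl-tRNA synthetase (GRCm38 chr3:108424865-108445209, minus strand), held most of the synthetase footprints. Over the 11 libraries the 37 genes had 10639 counts, and 3366 without Sars. In WT GV oocytes Sars had 1022, 117 and 184 counts, or 7026, 419 and 1914 CPM. In Nat10-ZcKO GV oocytes it had 182, 37 and 57 counts, or 4297, 716 and 206 CPM. The 3 libraries of one group thus differed from each other as much as the groups did.

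At MII, the WT libraries had 5589 and 12 counts of Sars, and those of Nat10-ZcKO 41, 21 and 11. In WT MII replicate 1 it was the gene with rank 2 among all genes and took 4.14% of the library (41448 CPM). In the Nat10-ZcKO MII libraries it took 0.00689% to 0.0218%. WT MII replicate 2 lay between, at 2492 CPM from 12 counts.

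Sars varied more among replicates than the other synthetase genes that could be compared. In the 10 synthetase genes with at least 10 counts in each WT GV library, the highest CPM was 16.8 times the lowest for Sars. It was 1.15 to 1.79 times the lowest for the other 9 genes, with a median of 1.53, beside a median of 1.47 over the 1331 genes with as many counts. Of those 1331 genes, 2 had a range at or above that of Sars, Sars included. The group means of Sars therefore carry large errors, with a mean of 3119 CPM in WT GV, and family sums are given with and without it.

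**Figure D1:**
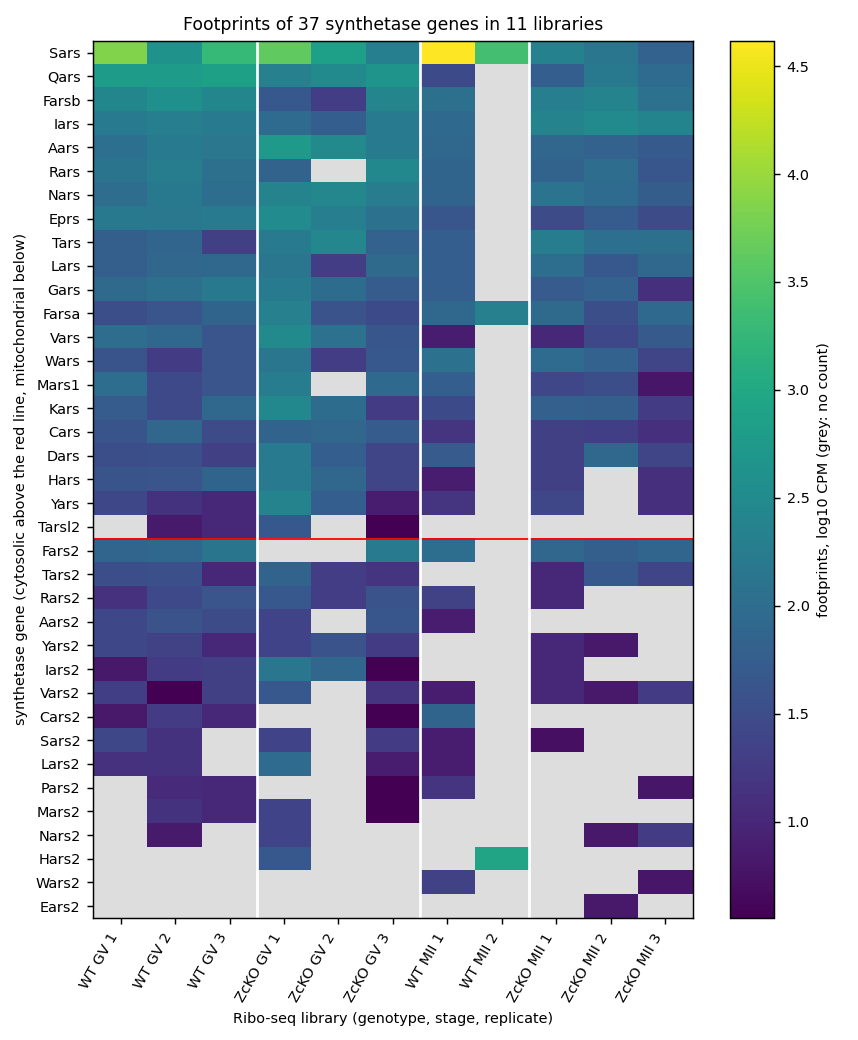
Footprints of the 37 synthetase genes (rows, cytosolic above the red line and mitochondrial below, each sorted by total counts) in the 11 Ribo-seq libraries (columns), as log10 CPM, with grey for no count. Sars stands out in WT MII replicate 1, most mitochondrial genes are near or at 0 counts, and WT MII replicate 2 has counts on 3 of the 37 genes.

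Levels were compared between genes per length of coding sequence, as TPM, counts divided by coding length and rescaled to the same sum in each library. In WT GV oocytes Sars was at 336 to 5587 TPM. Qars, the glutaminyl-tRNA synthetase of the multi-synthetase complex, followed at 362 ± 38.9 TPM (SD, n = 3). Farsb, the beta subunit of the cytosolic phenylalanyl-tRNA synthetase, was at 209 ± 50.1 TPM. Qars and Farsb did not overlap, whereas the 3 libraries of Sars overlapped those of Qars and lay above those of Farsb.

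Below Farsb the order was not resolved. Rars (arginyl) was at 92.9 ± 23.0 TPM, Fars2 (mitochondrial phenylalanyl) at 82.7 ± 27.5 TPM and Gars (glycyl) at 70.9 ± 20.6 TPM. Aars (alanyl) was at 63.9 ± 14.8 TPM, Iars (isoleucyl) at 55.7 to 67.0 TPM and Eprs at 46.4 ± 3.88 TPM (SD, n = 3 for those with an error). Neighbours in this series differed by less than their SD, except Eprs, which lay below Iars in each of the 3 libraries.

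Nars (asparaginyl), with 200 counts over the 11 libraries, also ranked among these genes, at 91.9 ± 23.5 TPM (SD, n = 3). Of the cytosolic genes, 19 of the 21 reached 50 counts over the 11 libraries. The median was 117 counts for a cytosolic and 17 counts for a mitochondrial gene. Of the 16 mitochondrial genes, 15 had under 50 counts in all and 6 under 10. Fars2, with 143 counts, was the exception, followed by Tars2 (threonyl) with 37 and Rars2 (arginyl) with 33. A gene had counts in every library but WT MII replicate 2 in 16 cases, all of them cytosolic.

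The share of footprints on the cytosolic synthetases depended on Sars. With Sars it was 0.550 ± 0.332% in WT GV, 0.445 ± 0.321% in Nat10-ZcKO GV and 0.154 ± 0.0326% in Nat10-ZcKO MII (SD, n = 3 each). The 2 WT MII libraries gave 4.25% and 0.270%. On these values the groups overlapped except that each Nat10-ZcKO MII library lay below every other library. With library sizes scaled by TMM factors, WT MII replicate 2 (13 counts) was the lowest, at 0.0229%, and the Nat10-ZcKO MII libraries, at 0.192% to 0.242%, lay below the other 7.

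Without Sars, the remaining 20 cytosolic genes gave a lower share of raw totals at MII. WT GV libraries were at 0.224%, 0.254% and 0.239%, and Nat10-ZcKO GV libraries at 0.386%, 0.209% and 0.220%. WT MII libraries were at 0.111% and 0.0208%, the latter from 1 count, and Nat10-ZcKO MII libraries at 0.152%, 0.158% and 0.110%. Every GV library was thus above every MII library. The separation was lost with TMM-scaled library sizes, where Nat10-ZcKO GV replicate 2, at 0.182%, lay below Nat10-ZcKO MII replicates 1 and 2 (0.212% and 0.218%). The other 5 GV libraries were at 0.240% to 0.385% on that scale. The exact 95% intervals, which cover counting error only, reached from 0.0940% to 0.131% in WT MII replicate 1 and from 0.201% to 0.250% in WT GV replicate 1, the lowest of the WT GV libraries. In Nat10-ZcKO GV replicate 3, the library of its group with high oocyte markers, the interval was 0.203% to 0.238%. No test was run on these sums.

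The 8 enzymes of the multi-synthetase complex, without Sars among them, took 0.136 ± 0.00523% of WT GV libraries and 0.116 ± 0.0386% of Nat10-ZcKO GV libraries (SD, n = 3 each). At MII they took 0.0438% and 0% in WT, and 0.0672 ± 0.0165% in Nat10-ZcKO (SD, n = 3). Their range was 0.0735% to 0.149% in Nat10-ZcKO GV and 0.0545% to 0.0859% in Nat10-ZcKO MII, so those 2 groups overlapped. Nat10-ZcKO GV replicate 3, the library of its group with high oocyte markers, was at 0.126%, above all Nat10-ZcKO MII libraries.

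The mitochondrial synthetases together took 0.0289 ± 0.00305% of WT GV libraries and 0.0351 ± 0.0207% of Nat10-ZcKO GV libraries (SD, n = 3 each). Nat10-ZcKO MII libraries were at 0.0142 ± 0.000756% (SD, n = 3), from 20 to 26 counts each. WT MII replicate 1 was at 0.0267%, with an interval of 0.0187% to 0.0370% that overlaps those of WT GV. In WT MII replicate 2 a share of 0.0831% rested on 4 counts, all on Hars2, whose exons overlap those of Hars on the opposite strand. The Nat10-ZcKO MII libraries lay below all others, and the lowest Nat10-ZcKO GV library, replicate 2 at 0.0155%, was within their counting intervals. With TMM-scaled library sizes this order was lost: Nat10-ZcKO GV replicate 2 (0.0134%) and WT MII replicate 2 (0.00704%) lay below the Nat10-ZcKO MII libraries (0.0188% to 0.0248%). Nat10-ZcKO GV replicate 3 was above them on both scales, at 0.0332% and 0.0573%.

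**Figure D2:**
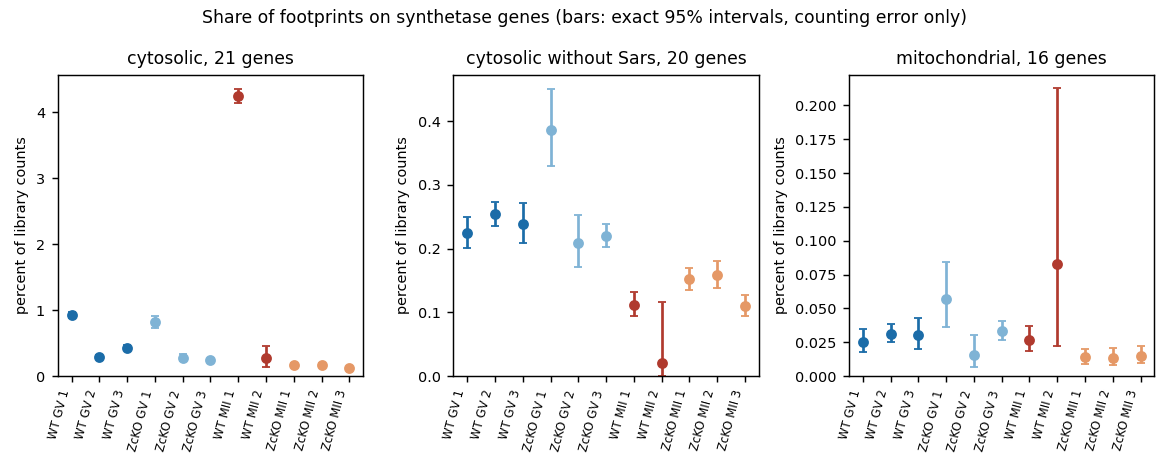
Share of all footprints, in percent of library counts, on the 21 cytosolic synthetase genes, on the 20 without Sars and on the 16 mitochondrial ones, with 1 point per library, coloured by group, and exact 95% intervals. Without Sars, all GV libraries lie above all MII libraries, while WT MII replicate 2 has intervals reaching from near 0 to 0.116% (cytosolic) and 0.213% (mitochondrial).

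Maturation from GV to MII was compared first in WT oocytes, with edgeR's quasi-likelihood test over all genes and Benjamini-Hochberg adjustment. Of the 13 synthetase genes that passed the filter on low counts, 0 were called at an adjusted p under 0.05, where 0.293% of 2045 genes were called higher and 0% lower. With no adjustment, p was under 0.05 for 2 in the lower direction, Qars and Vars (valyl), beside 16.9% of all genes. The median change of the 13 was -0.86 on the log2 scale, beside -0.67 over all genes tested. Groups did not overlap for 10 of the 13 in the lower direction, where 52.2% of all genes did the same, and for 1, Farsa (the alpha subunit of the phenylalanyl enzyme), in the higher direction, beside 3.81%. Each of the 10 had 0 counts in WT MII replicate 2, where a 0 allows 623 CPM, so their separation rests on replicate 1. Farsa had 1 count in replicate 2 (208 CPM) and was at 81.6 CPM in replicate 1, beside 34.4 to 72.8 CPM in WT GV.

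The number of genes called turned on WT MII replicate 2. Without it, 1 WT MII library was left, assumed to vary like the WT GV libraries, and 6 of 20 synthetase genes tested were called. Of the 20, 4 were lower, beside 23.9% of 3264 genes, and 2 were higher, beside 20.9%. DESeq2 called 5 of 13 lower with all libraries, beside 41.3% of all genes.

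Qars had few footprints in WT oocytes at MII. It had 88, 178 and 70 counts in WT GV (605, 637 and 728 CPM) and 4 and 0 counts in WT MII (29.7 CPM and no count). All WT GV libraries were far above WT MII replicate 1, while the 0 counts of replicate 2 allow up to 623 CPM. The log2 fold change was -4.46 (SE 2.01, adjusted p = 0.188 with edgeR), and -4.35 (SE 0.46, adjusted p = 1.84e-06) without WT MII replicate 2.

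Eprs and Farsb were lower at MII in WT as well. Eprs had 23, 43 and 17 counts in WT GV (154 to 177 CPM) and 6 and 0 in WT MII (44.5 CPM in replicate 1), with a log2 fold change of -1.76 (adjusted p = 0.0125 with edgeR) without WT MII replicate 2. Farsb had 38, 108 and 25 counts in WT GV (260 to 386 CPM) and 15 and 0 in WT MII (111 CPM in replicate 1), with -1.39 (adjusted p = 0.0164) in that fit. With both WT MII libraries neither was called, at adjusted p = 0.325 for Eprs and 0.461 for Farsb (edgeR). Vars was called lower and Wars (tryptophanyl), at a log2 fold change of 1.99 (adjusted p = 0.0482 with edgeR), higher without replicate 2.

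Sars changed direction with the library left out. In WT its log2 fold change from GV to MII was 3.17 (SE 2.39, adjusted p = 0.402 with edgeR). It was 3.75 without WT MII replicate 2 and -3.68 without WT MII replicate 1, and each of these fits held 1 WT MII library. Sars was set apart beforehand for its extreme value in WT MII replicate 1. These values are therefore not independent support for a stage difference.

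In Nat10-ZcKO oocytes, 3 of 14 synthetase genes tested fell from GV to MII and 0 rose, where 6.56% of 2225 genes were called lower and 9.98% higher. The median log2 fold change was -0.93 over the 14 genes and -0.12 over all genes tested, and 12 of the 14 values were below 0. Groups did not overlap in the lower direction for 4 of the 14 (Eprs, Aars, Qars and Nars, the asparaginyl enzyme), beside 13.8% of all genes, and in the higher direction for 1 (Iars), beside 28.6%.

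Eprs had 14, 10 and 33 counts in Nat10-ZcKO GV (331, 193 and 119 CPM) and 6, 8 and 5 in Nat10-ZcKO MII (31.9, 54.5 and 31.3 CPM). Every GV library was above every MII library, and the log2 fold change was -2.50 (SE 0.66, adjusted p = 0.0282 with edgeR). Aars had 24, 16 and 48 counts in GV (567, 309 and 173 CPM) and 15, 10 and 8 in MII (79.8, 68.2 and 50.1 CPM). These groups did not overlap either, and the log2 fold change was -2.46 (SE 0.66, adjusted p = 0.0293 with edgeR).

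For both genes the Nat10-ZcKO GV libraries that were poor in oocyte markers, replicates 1 and 2, were the highest. Without these 2 libraries 1 GV library was left, assumed to vary like the MII libraries, which alone gave the spread. In that fit the log2 fold change was -1.91 (adjusted p = 0.0342 with edgeR) for Eprs and -1.70 (adjusted p = 0.0195) for Aars. When any 1 of the 3 Nat10-ZcKO MII libraries was left out, edgeR called 0 synthetase genes and 0 of all genes.

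Sars was called lower in Nat10-ZcKO MII at -3.53 (adjusted p = 0.0333 with edgeR), although its groups overlapped, at 206 to 4297 CPM in GV and 68.9 to 218 CPM in MII. Without Nat10-ZcKO GV replicates 1 and 2 it was at -0.86 (adjusted p = 0.195). Qars had 9, 16 and 128 counts in Nat10-ZcKO GV (212, 309 and 462 CPM) and 11, 23 and 15 in MII (58.5, 157 and 93.9 CPM). Its log2 fold change was -2.01 (adjusted p = 0.0757 with edgeR) with all libraries and -2.47 (adjusted p = 1.32e-05) without those 2 GV libraries, a fit that called 5 of 17 synthetase genes lower, beside 19.6% of 3741 genes.

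Rars and Fars2 were the other 2 genes called in that fit. Rars had 3, 0 and 78 counts in Nat10-ZcKO GV and 13, 15 and 7 in Nat10-ZcKO MII, and Fars2 had 0, 0 and 45 counts and 15, 9 and 12. In both the single GV library rich in oocyte markers was high and the other 2 were at or near 0 counts. In WT, Rars had 19, 51 and 11 counts at GV and 10 and 0 at MII, and Fars2 had 11, 24 and 13 counts at GV and 14 and 0 at MII.

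Iars, a class I enzyme of the multi-synthetase complex, went the other way in Nat10-ZcKO oocytes, short of the threshold. It had 4, 3 and 49 counts in Nat10-ZcKO GV (94.4, 58.0 and 177 CPM) and 44, 47 and 39 in MII (234, 320 and 244 CPM), the most of any synthetase gene in each of these 3 MII libraries. All MII libraries were above all GV libraries, with a log2 fold change of 0.82 (SE 0.71, adjusted p = 0.398 with edgeR), and 0.28 (adjusted p = 0.701) without Nat10-ZcKO GV replicates 1 and 2. In WT it had 24, 55 and 16 counts at GV (165 to 197 CPM) and 12 and 0 at MII. WT MII replicate 1, at 89.0 CPM, lay below all WT GV libraries. The log2 fold change in WT was -1.01 (adjusted p = 0.565 with edgeR), and -0.92 without WT MII replicate 2.

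**Figure D3:**
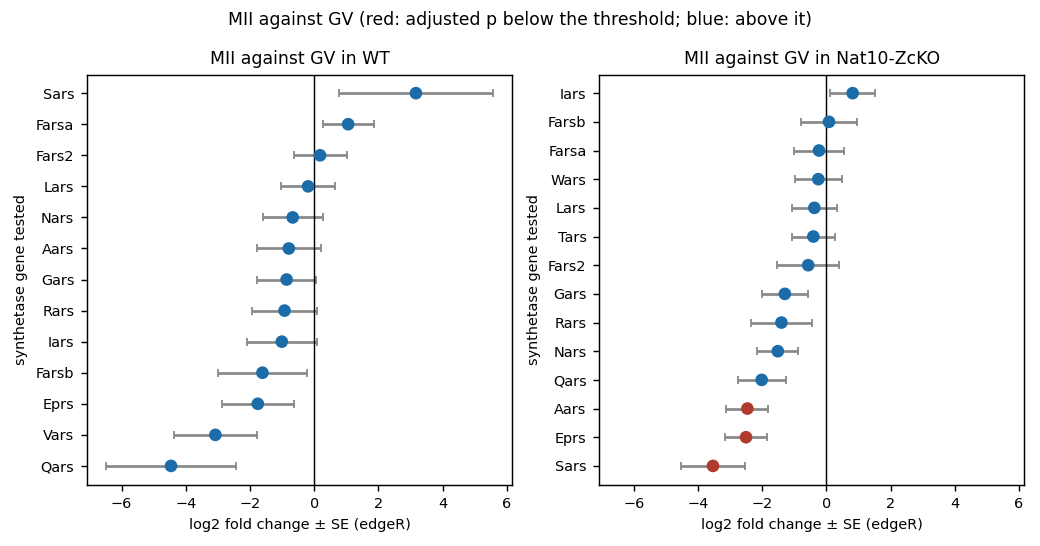
Log2 fold change from GV to MII (x axis, edgeR, bars are SE derived from the F statistic) of the synthetase genes tested in WT (13 genes) and in Nat10-ZcKO (14 genes). Most points lie below 0; in WT no gene passed the adjusted p threshold, and in Nat10-ZcKO Sars, Eprs and Aars (red) did.

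The genotypes were then compared within each stage. These comparisons share their libraries with the stage comparisons above. At GV, 0 of 14 synthetase genes were called, and 0% of 1765 genes in either direction. With no adjustment, p was under 0.05 for 1 (Aars, higher), where the same held for 3.97% of all genes. DESeq2 called 0 synthetase genes and 0.170% of all genes, all higher. The median log2 fold change was 0.19 over the 14 genes and -0.01 over all genes.

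Qars and Farsb were lower in each Nat10-ZcKO GV library than in each WT GV library, and Nars was higher in each, counts to be read beside 12.8% and 3.23% of all genes. Farsb had 2, 1 and 70 counts in the Nat10-ZcKO GV libraries (47.2, 19.3 and 253 CPM), so replicate 3 lay just under the WT range of 260 to 386 CPM. For Farsb the log2 fold change was -1.13 (adjusted p = 0.908 with edgeR), and -0.09 without Nat10-ZcKO GV replicates 1 and 2. Without replicate 3 it was -3.29 (adjusted p = 0.0188 with edgeR), where 167 of 1858 genes were called lower. That fit kept, of its group, only replicates 1 and 2, which were poor in oocyte markers. Qars was at -0.80 (adjusted p = 0.908 with edgeR) and at -0.30 (adjusted p = 0.715) without replicates 1 and 2, and Nars was at 1.03 (adjusted p = 0.908) and 0.70 (adjusted p = 0.404).

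Without Nat10-ZcKO GV replicates 1 and 2, Sars was the only 1 of 18 synthetase genes called, lower at -3.78 (adjusted p = 0.00101 with edgeR), beside 1.03% of 3879 genes. This fit had 1 Nat10-ZcKO library, so its p rests on the spread of the WT GV libraries alone. The remaining Nat10-ZcKO GV library had 206 CPM of Sars and the lowest WT GV library 419 CPM. With all 6 GV libraries the value for Sars was -0.87 (SE 1.28, adjusted p = 0.908).

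At MII, 0 of 12 synthetase genes were called, where 0.191% of 2097 genes were called lower and 0% higher. With no adjustment, 1 had a p under 0.05 (Sars, lower), beside 1.57% of all genes. The log2 fold change of Sars was -7.44 (SE 2.36, adjusted p = 0.307 with edgeR), with both WT MII libraries above all Nat10-ZcKO MII libraries, beside 1.19% of all genes. The value was -8.28 without WT MII replicate 2 and -1.44 without WT MII replicate 1. Each of these fits had 1 WT MII library and took the spread from the Nat10-ZcKO MII libraries alone. DESeq2 called it with all libraries, at an adjusted p of 0.000111. The size of this difference thus came from 1 library, WT MII replicate 1. Sars was set apart beforehand for its extreme value in 1 library, so these p-values are not independent support for a genotype difference.

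Each Nat10-ZcKO MII library was above each WT MII library for 4 of 12 genes (Qars, Farsb, Iars and Tars), beside 30.0% of all genes. Each of the 4 had 0 counts in WT MII replicate 2, where a 0 allows 623 CPM, so their separation rests on replicate 1. None was called with all libraries. Against WT MII replicate 1 alone, the edgeR log2 fold change was 1.49 (adjusted p = 0.659) for Iars, 1.69 (adjusted p = 0.991) for Qars and 0.61 for Farsb, and none was called.

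Whether the genotype changed the stage difference was tested as an interaction in all 11 libraries. Of 21 synthetase genes tested 0 were called, where 0.777% of 3863 genes were called lower and 0.0259% higher. With no adjustment, 1 had a p under 0.05 in the lower direction, beside 2.69% of all genes (Sars, at -5.69, SE 2.60, adjusted p = 0.789 with edgeR). DESeq2 called Sars, at an adjusted p of 0.0325, with its extreme library, WT MII replicate 1, among those fitted. Iars was at 3.08 (SE 1.68), Qars at 3.55 (SE 2.02) and Farsb at 2.84 (SE 1.69), each at adjusted p = 0.789. Without the 3 libraries that stood apart, Sars was at -4.42 (adjusted p = 0.221), Iars at 1.38 (adjusted p = 0.700), Qars at 2.05 (adjusted p = 0.627) and Farsb at 0.77 (adjusted p = 0.817).

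**Figure D4:**
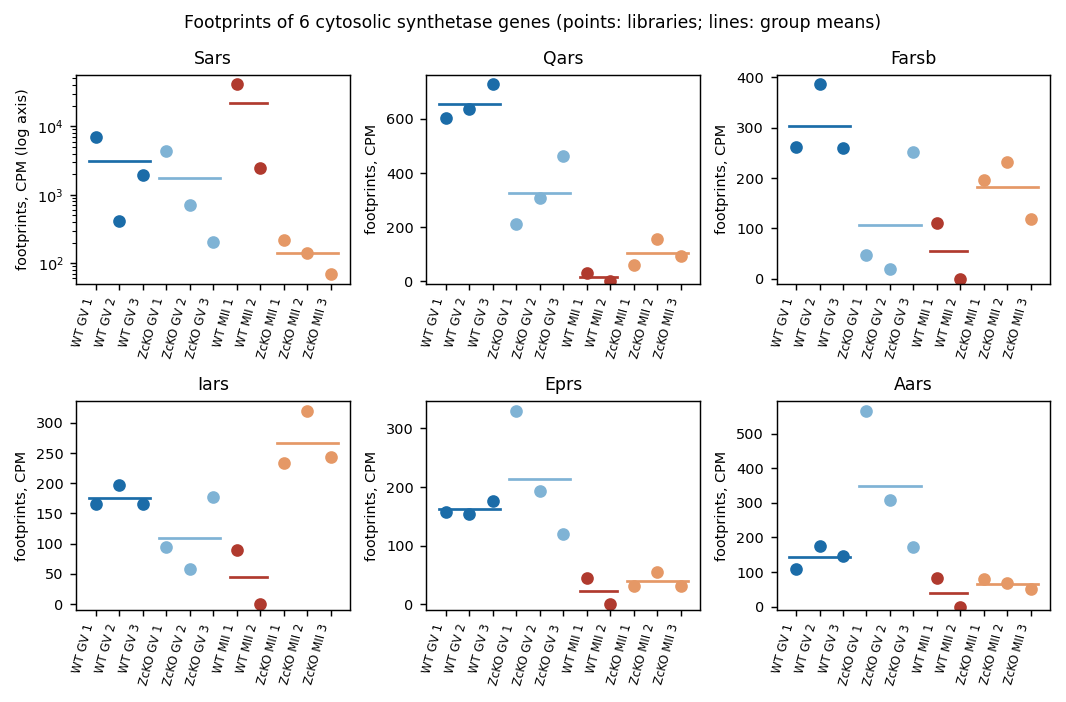
Footprints in CPM (log axis for Sars) of 6 cytosolic synthetase genes, with 1 point per Ribo-seq library and lines at the group means. Sars spreads over more than 1 order of magnitude among WT libraries, Qars, Eprs and Aars are lower in MII than in GV libraries of their genotype, and Iars is highest in Nat10-ZcKO MII. In WT MII replicate 2 all but Sars had 0 counts, where a 0 allows 623 CPM.

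Other genes of tRNA charging gave few footprints. The 14 listed (the scaffold proteins Aimp1, Aimp2 and Eef1e1 of the multi-synthetase complex, the glutamyl-tRNA amidotransferase subunits, Sepsecs and others) took 0% to 0.0364% of a library. None passed the filter in either stage comparison, 1 did in each genotype comparison and 2 in the interaction, and 0 of these were called.

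The 16 listed ATF4 target genes of the amino acid response, in contrast, took 0.0408% to 0.0851% of GV libraries, 0.308% of WT MII replicate 1, 0.0208% of WT MII replicate 2 (1 count) and 0.234% to 0.331% of Nat10-ZcKO MII libraries. In Nat10-ZcKO, 3 of the 6 tested rose from GV to MII (Ddit4, Mthfd2 and Slc7a11) and 0 fell, beside 9.98% of all genes called higher. The other 10 were not tested, and of these Asns, Chac1, Trib3, Sesn2, Psat1, Phgdh and Atf3 had 0 counts in each of the 3 Nat10-ZcKO MII libraries. Mthfd2, a mitochondrial enzyme of folate metabolism, had a log2 fold change of 3.65 (adjusted p = 0.0256 with edgeR), and the cystine transporter Slc7a11 had 3.27 (adjusted p = 0.0259). Mthfd2 and Slc7a11 did not pass the filter in the genotype comparison at GV, where 3 of the 16 were tested. They could pass it here through the MII libraries, where they were high, so the count of rises was partly set by the filter. Mthfd2 had no count in Nat10-ZcKO GV replicates 1 and 2. Without these 2 libraries the log2 fold change was 3.02 for Mthfd2 and 3.03 for Slc7a11 (edgeR). With all Nat10-ZcKO libraries, 0 of the 14 synthetase genes tested were called higher and 3 (Eprs, Aars and Sars) lower.

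The ATF4-type element was looked for in the promoters of the synthetase genes, since several are known ATF4 targets. RefSeq promoter windows on GRCm38.p6, from 250 bases before to 50 after the start, were held for 28 of the 37 genes. The letters TGATGNAA, or TTNCATCA on the other strand, were found in the windows of 5 of 14 cytosolic genes (35.7%) and 0 of 14 mitochondrial genes. Of all genes with a window, 1219 of 27025 had them (4.51%). The match nearest the start of each of these 5 genes is printed here, because only genes listed as cytosolic held the letters. Each match is shown in capitals with 10 bases on either side, 5′ to 3′ in the direction of the gene.
Aars, chr8:111033841-111033868, plus strand: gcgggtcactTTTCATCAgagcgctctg
Gars, chr6:55037961-55037988, plus strand: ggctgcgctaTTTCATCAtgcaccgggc
Iars, chr13:49682127-49682154, plus strand: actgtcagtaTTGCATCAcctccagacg
Tars, chr15:11399656-11399683, minus strand: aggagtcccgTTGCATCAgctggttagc
Yars, chr4:129189896-129189923, plus strand: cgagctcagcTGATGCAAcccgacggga

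The genes with these letters did not move as one. In Nat10-ZcKO from GV to MII, Aars was at -2.46 (called), Gars at -1.29 (adjusted p = 0.193), Tars at -0.41 (adjusted p = 0.659) and Iars at 0.82 (adjusted p = 0.398), all on the log2 scale with edgeR. Without Nat10-ZcKO GV replicates 1 and 2, Gars was at -0.62 (adjusted p = 0.634) and Tars at 0.65 (adjusted p = 0.437). Yars (tyrosyl) did not pass the filter. A match is a run of letters in the window and was not tested as a binding site.

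In acRIP-seq of WT GV oocytes, 12 of the 37 synthetase genes had no anti-IgG count. Counts on genes came to 970997 with anti-ac4C and 116232 with anti-IgG, with no replicate and no input, so ratios have no test and the bounds cover counting error only. The 21 cytosolic genes had 2986 anti-ac4C and 247 anti-IgG counts. Scaled to library totals, the anti-ac4C/anti-IgG ratio was 1.45 (95% bounds 1.27 to 1.65), and 1.48 (1.29 to 1.71) without Sars. The median ratio of the 20 synthetase genes with at least 50 counts was 1.27, and so was that of all 4680 genes with as many.

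The mitochondrial genes had 1773 anti-ac4C and 918 anti-IgG counts, of which 1507 and 874 were on Lars2, the mitochondrial leucyl-tRNA synthetase. Lars2 was at 1552 CPM with anti-ac4C and 7519 CPM with anti-IgG, a ratio of 0.206 (0.190 to 0.225). In Ribo-seq, which counts the coding sequence alone, Lars2 had 13 footprints over the 11 libraries, and whether its acRIP-seq counts came from Lars2 mRNA was not tested. Without Lars2 the other 15 mitochondrial genes gave a ratio of 0.724 (0.524 to 1.02). Over all 37 genes the ratio was 0.489 with Lars2 and 1.34 without it.

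A ratio above 2 at 10 or more counts was met by 12 of 28 synthetase genes, beside 43.9% of 8752 genes, and 5 of the 12 had no anti-IgG count. For 4 of these 5 the bound against 3 anti-IgG counts was under 2. For Tars2 it was 2.27, while the exact lower 95% bound was 1.79. With the lower 95% bound above 2 there were 2 of 28, Gars and Rars, beside 5.02% of all genes. Gars had 174 anti-ac4C and 2 anti-IgG counts (ratio 10.4, 2.84 to 86.7), and Rars had 225 and 5 (5.39, 2.27 to 16.8).

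Among the others, Iars had 415 and 16 counts (3.10, 1.89 to 5.48), Eprs 200 and 7 (3.42, 1.63 to 8.62) and Aars 139 and 6 (2.77, 1.24 to 7.69). Qars had 522 and 73 (0.856, 0.669 to 1.11), Farsb 157 and 29 (0.648, 0.434 to 0.999) and Sars 187 and 21 (1.07, 0.677 to 1.76). The 2 genes with the most footprints per length after Sars thus had ratios under 1, with bounds that include 1 for Qars. Fars2 had 72 and 8 counts (1.08, 0.518 to 2.59), Rars2 22 and 9 (0.293, 0.129 to 0.722) and Tars2 57 and 0.

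Relative to Qars, Sars was lower among the fragments of the acRIP-seq pull-downs than among footprints. With no input, these fragments do not measure mRNA levels. Scaled to exon length and library total (RPKM), Qars was at 81.8 with anti-ac4C and 95.6 with anti-IgG, and Sars at 37.5 and 35.1. The footprints of Sars in the WT GV libraries were at 5587, 336 and 1552 TPM, beside 330, 351 and 405 TPM for Qars. In WT GV replicate 2 the footprints of Sars and Qars were thus level, and in the other 2 libraries Sars was higher.

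**Figure D5:**
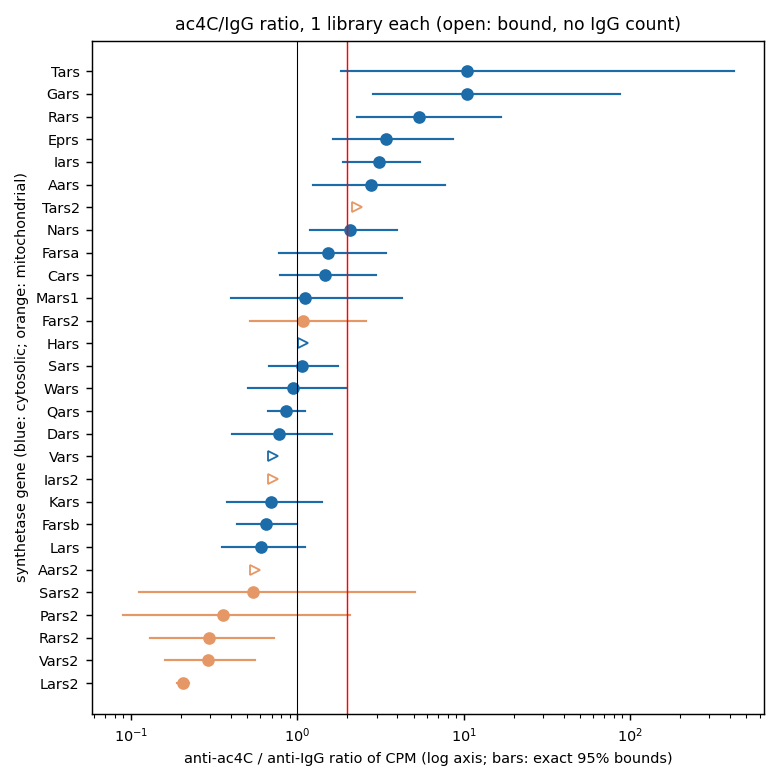
Ratio of anti-ac4C to anti-IgG CPM (log axis) of the 28 synthetase genes with at least 10 acRIP-seq counts, with exact 95% bounds, cytosolic in blue and mitochondrial in orange. Open triangles are bounds against 3 counts for genes with no anti-IgG count. The bars of Gars and Rars lie wholly above 2 (red line), and Lars2 has the lowest point ratio.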

How the data were processed

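Ribo-seq covered 11 oocyte libraries and acRIP-seq 2. The authors deposited raw counts per gene for each library, on the CDS for Ribo-seq and on genes for acRIP-seq. The submitters' processing notes name cutadapt, STAR, HTSeq and mm10 without versions; no removal of PCR duplicates is given in the sources used here, and without molecular identifiers intervals and limits cover counting error only. HTSeq summary rows were left out. Fragments on no feature were 46.7% with anti-IgG and 17.1% with anti-ac4C. The methods state biological replication for the experiments in general, and no label ties replicates to separate mice, so p-values measure the spread between libraries, which may be technical.

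Of 22442 identifiers, 22399 matched GENCODE M21 (GRCm38), which gave symbols, CDS lengths and coordinates. Mars1 is listed there as Mars. Counts were tested with edgeR 4.0.16 (filterByExpr, TMM, glmQLFit and glmQLFTest, prior count 0.125, Benjamini-Hochberg adjustment over all genes tested, threshold 0.05) in R 4.3.3; DESeq2 1.42.0 was an alternative. Shares and ratios were computed in Python 3.11.15 with exact (Clopper-Pearson) 95% intervals, taking 3 counts as the limit of a 0. Steps were tested on simulated data.

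The 37 members, the gene lists and the tests were chosen with earlier results of these data known. Values are given for Sars, members with an adjusted p under 0.05, the 6 cytosolic and 3 mitochondrial members with most footprints, and members whose lower bound of the ac4C/IgG ratio exceeds 2. Lars2, Nars, Farsa, Vars, Wars, Tars, Yars, Hars2 and the ATF4 targets were named after their values were seen. Translational efficiency and protein sequences were not analysed here. Promoter matches farther from the start are not reported here.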

Additional observations from a re-analysis of the deposited data

How the results depend on the processing

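Of the values named per gene, 534 kept their side of the threshold under the alternatives, 37 passed it newly, 23 lost it and 3 reversed. Leaving out 1 library at a time moved the number of synthetase genes called to 0 to 1 for genotype at GV, 0 to 5 for genotype at MII, 0 to 12 for stage in WT, 0 to 7 for stage in Nat10-ZcKO and 0 to 3 for the interaction. In the same way the stage change in WT ranged from -3.68 to 4.80 for Sars and from -6.76 to 0.40 for Fars2, reversing without WT MII replicate 1, and that in Nat10-ZcKO from -0.95 to 6.19 for Fars2, reversing without Nat10-ZcKO GV replicate 3. The cause was not tested. For genotype at MII DESeq2 called 1 of 12 synthetase genes, beside 15 of 2097 genes. For stage it called 5 of 13 in WT, beside 891 of 2045, and 5 of 14 in Nat10-ZcKO, beside 789 of 2225. For the interaction it called 1 of 21, beside 49 of 3863. Library size alone called 1 of 12 for genotype at MII, beside 44 of 2097 genes. For stage in WT it called 3 of 13, beside 997 of 2045. In Nat10-ZcKO the stage comparison called 0 with no filter on low counts, 0 with a minimum of 10 counts, 0 with all 11 libraries in one fit and 5 without Nat10-ZcKO GV replicates 1 and 2. The last, like the fits without Sars in the counts, the interaction without 3 libraries and the ratio without Lars2, was chosen after seeing the data. At GV, leaving out the same 2 libraries called 1. Over all genes the calls ranged from 0 to 380 (genotype at GV), 0 to 1451 (genotype at MII), 0 to 1902 (stage in WT), 0 to 1445 (stage in Nat10-ZcKO) and 0 to 1209 (interaction), beside 0, 4, 6, 368 and 31 as reported.

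Deviations of same-numbered libraries from their group means correlated at -0.0958 to 0.151. Those of the 2 WT MII libraries mirror each other by construction, so these values cannot decide whether the numbers pair libraries. With the replicate block, 0 synthetase genes were called for stage in Nat10-ZcKO in place of 3, and 0 in the other comparisons. The mean cytosolic share in Nat10-ZcKO MII was 0.224% with TMM-scaled library sizes and 0.0923% of TPM. The mitochondrial share was 0.0418% and 0.0201% in WT GV and 0.0209% and 0.0107% in Nat10-ZcKO MII on these scales. The ac4C/IgG ratio of summed counts was 0.545 with TMM factors, 4.08 unscaled, 0.762 with fragments on no feature in the totals and 1.34 without Lars2. Synthetase genes past 2 numbered 27 unscaled, 19 without a minimum count and 2 by the lower bound. WT MII replicate 2, at 4815 counts, and the mitochondrial genes, mostly under 50 counts, limit what could be detected.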
